A study of Mus musculus with 10 samples.

Results

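The Slc25 genes encode the mitochondrial carriers, and their ribosome-bound RNA was followed here in Drd1-expressing cells of the mouse striatum. The set was every row of the count files whose symbol is Slc25a followed by a number. It held 47 of 32531 gene rows, of which 40 had at least 10 counts in 3 or more pull-downs and are described below. The other 7 (Slc25a2, Slc25a21, Slc25a31, Slc25a41, Slc25a43, Slc25a48 and Slc25a54) stayed under that level. The same 40 rows passed the expression filter of the statistical test. Ucp2, Ucp3, Mtch1 and Mtch2 belong to the same protein family under other symbols and are given beside it.

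Mitochondrial carriers are small proteins of the inner membrane that pass metabolites, nucleotides and cofactors between the matrix and the cytosol. They are made in the cytosol from nuclear genes and then imported. In neurons the ADP/ATP and phosphate carriers supply oxidative phosphorylation, and the aspartate/glutamate and oxoglutarate carriers run the malate-aspartate shuttle, which brings cytosolic reducing equivalents to the respiratory chain.

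All mice were adult and carried the transgene Drd1-TRAP CP73, which puts an EGFP tag on the ribosomal protein Rpl10a under the Drd1 promoter. Their background was FVB/N-Swiss Webster x C57BL/6, bred for at least 9 generations to C57BL/6. The tag follows the activity of that promoter across the dissected whole striatum. The 3 groups of 3 pull-downs were mice that self-administered saline, mice that self-administered cocaine, and yoked control mice, from a study of short-access intravenous self-administration. The labels state neither what yoked mice received, nor an age in weeks, nor whether libraries came from single or pooled animals, so each p-value reflects just the scatter of these libraries, and that scatter may be technical. A single library of total striatal RNA served as input. Libraries are named by group and number, for example yoked 3.

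The pull-downs held 12528806 to 45242175 gene counts and the input 40519976. Levels are given as CPM, counts per 1e+06 gene counts after TMM scaling over the 10 libraries. CPM is not corrected for transcript length, so levels of different genes are not ranked. Of 7 D1 neuron markers all 7 lay above the input in all 9 pull-downs, with a median of 2.23 times the input. All 6 D2 neuron markers lay below it in all 9, at a median of 0.151, and astrocyte and oligodendrocyte markers had medians of 0.183 and 0.162. The sequencing lane was 3 for saline, 1 for cocaine, 2 for yoked and 5 for the input. Group and lane therefore cannot be told apart. The pituitary genes Gh, Prl and Pomc summed to 2660 CPM in the input and 365 CPM in saline 1, against 0.432 to 6.01 CPM in the other 8 pull-downs. Yoked 3 stood apart from the other pull-downs, and values that it moves most are given with and without it. Yoked 2 had the highest marker sums of the pull-downs for D2 neurons (491 CPM), astrocytes (1110), oligodendrocytes (964) and microglia (25.3). Its D1 marker sum, 2220 CPM, was the lowest. The part of this in the fold changes below was not tested.

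Against the input, which compares ribosome-bound RNA of the tagged cells with RNA of the whole tissue, the carriers went in both directions. A ratio here is (CPM + 0.5) in a pull-down over (CPM + 0.5) in the input, averaged over the 9 pull-downs on the log2 scale. With 1 input there is no test, and the SD gives the spread of the 9 pull-downs only. Of the 40 members, 14 lay above the input in all 9 pull-downs, where 28.2% of 14716 genes did. A further 15 lay below it in all 9, where 34.1% of genes did, and 11 lay on both sides. The median member was at 1.16 times the input, against 0.958 for all genes. At least 2-fold above were 3 members (7.25% of all genes) and at least 2-fold below were 7 (16.9% of all genes). In each pull-down singly, 19 to 23 of the 40 members were above the input. Without yoked 3, 17 members lay above the input in all of the other pull-downs. Leaving out a library can only raise such a count, and no share of all genes is given for it. On the other side, Slc25a53 lay above the input in yoked 3 alone, at 1.08 times.

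**Figure D1:**
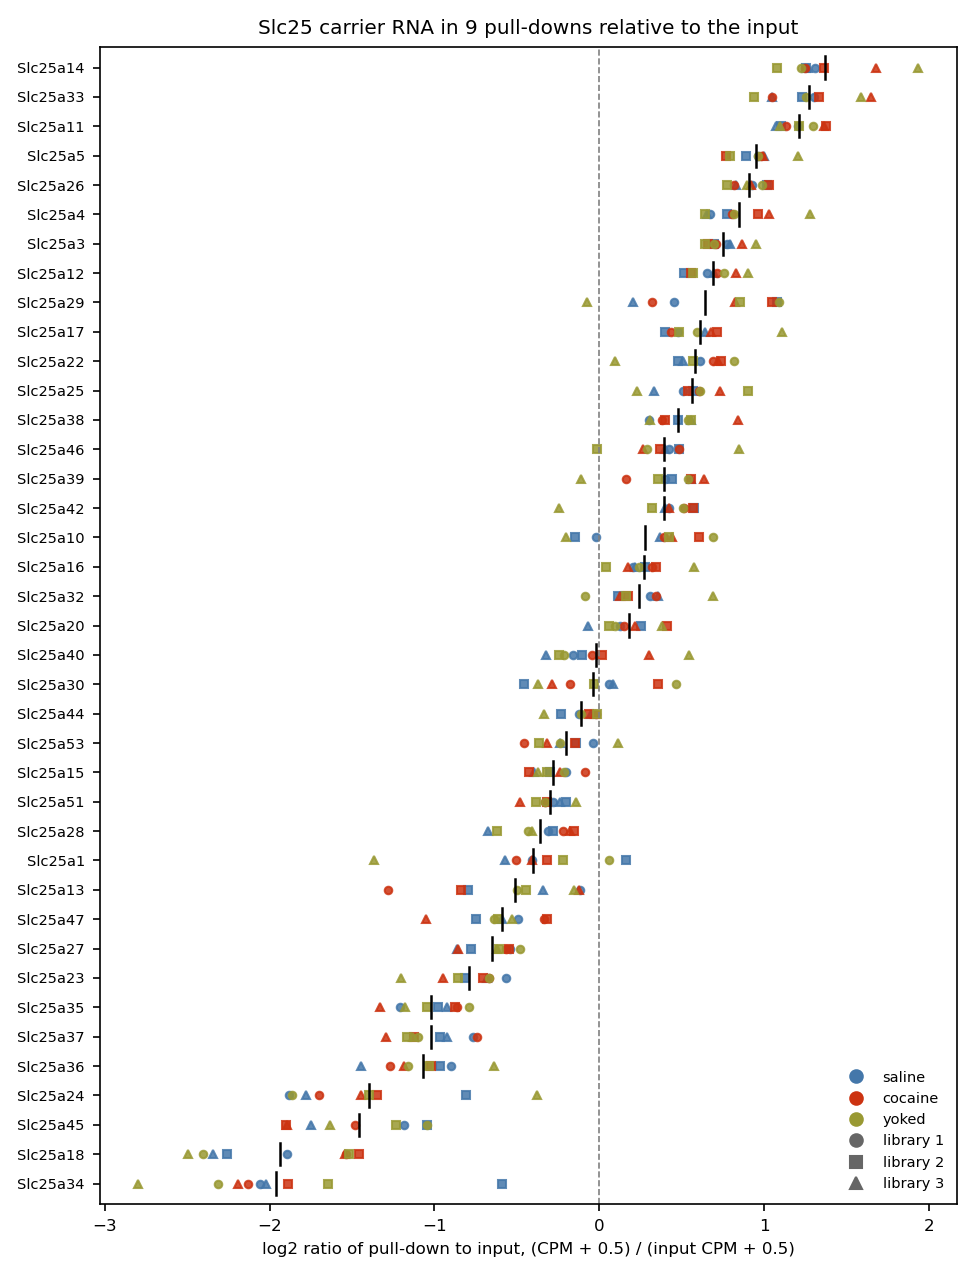
Log2 ratio of each pull-down to the input for 39 Slc25 members, sorted by their mean. Colours are groups, symbols are library numbers, the black bar is the mean of 9 and the dashed line is the input level. Slc25a14, Slc25a33 and Slc25a11 lie at the top with means of 1.37, 1.27 and 1.21, and Slc25a18 and Slc25a34 at the bottom with -1.94 and -1.96.

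The 3 members of the ADP/ATP and phosphate group were all above the input. Slc25a4, an ADP/ATP carrier (chromosome 8, 46207168 to 46211062), was at 545, 586 and 537 CPM in saline 1 to 3, at 598, 666 and 698 in cocaine 1 to 3, and at 602, 535 and 831 in yoked 1 to 3, against 342 in the input. Every pull-down exceeded the input, and the mean ratio was 1.80 (log2 0.85 ± 0.21, SD, n = 9). Slc25a5, the other ADP/ATP carrier described here (chromosome X, 36795597 to 36798808), was at 108, 102 and 111 CPM in saline, 109, 93.9 and 110 in cocaine and 108, 95.8 and 128 in yoked libraries, with 55.1 in the input. Its ratio was 1.93 (log2 0.95 ± 0.13). Reads of processed copies of this gene, such as Slc25a5-ps, may be shared with it or left out as not unique. Slc25a3, the phosphate carrier (chromosome 10, 91116574 to 91124046), was at 343, 326 and 348 CPM in saline, 328, 316 and 365 in cocaine and 326, 313 and 388 in yoked libraries, with 201 in the input, a ratio of 1.69 (log2 0.75 ± 0.10). For each of these genes yoked 3 was the highest library, and its distance from the other 8 was largest for Slc25a4.

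Within 1 library, the ratio of Slc25a4 to Slc25a5 counts was 6.21 in the input and 4.85 to 7.09 in the pull-downs. It was above the input's ratio in 3 of 9 pull-downs and below it in the others.

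The carriers of the malate-aspartate shuttle and their relatives parted. Slc25a12, the aspartate/glutamate carrier also called aralar (chromosome 2, 71274270 to 71367781), was at 206, 187 and 212 CPM in saline, 216, 193 and 234 in cocaine and 222, 195 and 245 in yoked libraries, with 131 in the input. Its mean ratio was 1.61 (log2 0.69 ± 0.13), above the input in 9 of 9. Its close relative Slc25a13, citrin, the aspartate/glutamate carrier best known from liver, ranged from 0.624 to 2.02 CPM over the pull-downs, with an input level of 2.23 CPM (95% Poisson interval 1.79 to 2.74, counting error only), below the input in 9 of 9, with a ratio of 0.702. The ratio of Slc25a12 to Slc25a13 counts was 58.8 in the input and between 102 and 345 in pull-downs. Slc25a11, the oxoglutarate carrier of the same shuttle (chromosome 11, 70644019 to 70647531), was at 121, 113 and 110 CPM in saline, 115, 136 and 135 in cocaine and 130, 122 and 113 in yoked libraries, with 52.3 in the input. It was among the highest members, at 2.31 times the input (log2 1.21 ± 0.12). It overlaps Rnf167 in the reference, and reads of the overlap cannot be assigned without the strand. The 4 shuttle enzymes Got1, Got2, Mdh1 and Mdh2 were also above the input in all 9 pull-downs, at 1.83, 1.65, 2.50 and 1.92 times the input.

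The mitochondrial glutamate carriers differed from each other by 2.52 ± 0.37 in their log2 ratios to the input (SD, n = 9). Slc25a22 (chromosome 7, 141429749 to 141437874) was at 98.1, 89.1 and 91.1 CPM in saline, 103, 107 and 106 in cocaine and 113, 94.9 and 68.3 in yoked libraries, with 63.9 in the input. It lay above the input in 9 of 9, at 1.5 times (log2 0.58 ± 0.21), with yoked 3 closest to the input at 1.07 times. Slc25a18, which carries the same substrate (chromosome 6, 120773504 to 120794169), was at 0.539, 0.307 and 0.262 CPM in saline, 0.833, 0.903 and 0.822 in cocaine and 0.230, 0.846 and 0.182 in yoked libraries, with 3.36 in the input (Poisson interval 2.81 to 3.98). It lay below the input in 9 of 9, at 0.261 times (log2 -1.94 ± 0.44), and its pull-down values rest on 4 to 37 counts a library. With a pseudocount of 2 CPM its log2 ratio was -1.08, against 0.57 for Slc25a22, so the size of this difference depends on the pseudocount. The ratio of Slc25a22 to Slc25a18 counts was 19.0 in the input and 112 to 491 in the pull-downs. Slc25a18 is a gene of astrocytes. In the astrocyte list, Slc1a2, Aqp4, Gfap, Slc1a3 and Gja1 had lower ratios, of 0.0996, 0.118, 0.158, 0.182 and 0.185. Glul, Aldoc and Aldh1l1 had higher ratios, of 0.301, 0.332 and 0.409. Of these 8 genes, 7 were below the input in all 9 pull-downs.

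**Figure D2:**
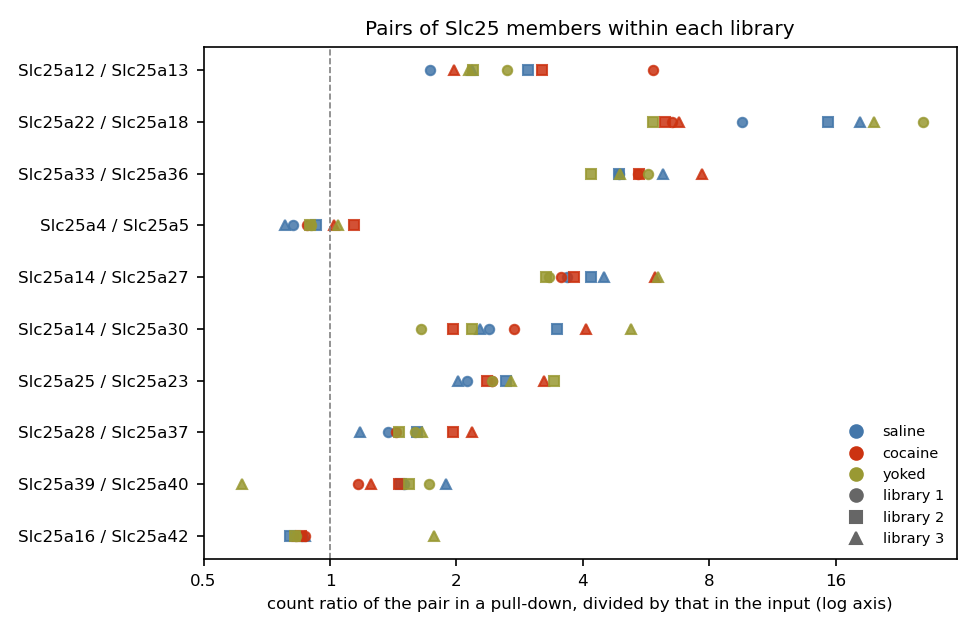
Count ratio of 2 related Slc25 members within each pull-down, divided by the same ratio in the input, on a log axis. Colours are groups and symbols library numbers. The first 3 pairs, Slc25a12 over Slc25a13, Slc25a22 over Slc25a18 and Slc25a33 over Slc25a36, lie right of 1 in all 9 pull-downs, and Slc25a4 over Slc25a5 lies on both sides.

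The pyrimidine nucleotide carriers also diverged. Slc25a33 (chromosome 4, 149744036 to 149774267) was at 45.1, 42.9 and 37.7 CPM in saline, 37.7, 46.0 and 57.3 in cocaine and 43.3, 34.9 and 55.1 in yoked libraries, and at 17.9 in the input, 2.41 times as high in the mean (log2 1.27 ± 0.24). Slc25a36 (chromosome 9, 97075281 to 97111041) was at 5.63, 5.36 and 3.70 CPM in saline, 4.25, 5.15 and 4.54 in cocaine and 4.62, 5.10 and 6.84 in yoked libraries against 11.0, a ratio of 0.477 (log2 -1.07 ± 0.23). The ratio of Slc25a33 to Slc25a36 counts was 1.64 in the input and 6.85 to 12.6 in the pull-downs, a mean log2 difference of 2.34 ± 0.24 (SD, n = 9) that had the same sign in 9 of 9 pull-downs.

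The 250 bases before the annotated start of each gene are shown for this pair, because the genes carry the same kind of substrate and part in all 9 pull-downs. They come from RefSeq on GRCm38.p6, both on the minus strand, at chr4:149774268-149774517 for Slc25a33 and chr9:97111042-97111291 for Slc25a36. Capitals mark the GC box, searched as GGGCGG on both strands.
Slc25a33: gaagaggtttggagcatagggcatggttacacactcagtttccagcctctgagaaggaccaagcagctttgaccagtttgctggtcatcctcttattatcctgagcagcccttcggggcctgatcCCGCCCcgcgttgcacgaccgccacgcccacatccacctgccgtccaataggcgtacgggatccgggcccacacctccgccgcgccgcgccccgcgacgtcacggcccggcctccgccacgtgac
Slc25a36: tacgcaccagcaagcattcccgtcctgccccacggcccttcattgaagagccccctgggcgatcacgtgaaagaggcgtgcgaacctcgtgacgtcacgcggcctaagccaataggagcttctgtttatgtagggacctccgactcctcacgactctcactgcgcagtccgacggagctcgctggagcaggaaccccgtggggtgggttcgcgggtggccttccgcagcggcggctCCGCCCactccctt

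Both windows had 64.4% G and C and 1 GC box, 125 to 120 bases before the start in Slc25a33 and 14 to 9 bases before it in Slc25a36, and held 23 and 24 CG dinucleotides. Over the promoter windows of the family (250 bases before to 50 after the start), 31 of the 40 members had an entry. A GC box was present in 27 of 31 members (87.1%), against 68.4% of 10577 genes with the same count level. The TATA box TATAAA was found in 1 member (3.23%), Slc25a18, against 8.63% of genes. The ETS core CCGGAAG was found in 6 members (19.4%, against 18.6%), among them Slc25a3 and Slc25a4. A palindromic NRF1 site was found in 0 of 31 members, against 2.28% of genes. The median G and C content of the first listed window was 60.7% in members and 61.0% in all genes. These are matches of letters only, and windows differ in number between genes.

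The uncoupling-protein-like carriers did not move together. Slc25a14 (chromosome X, 48623418 to 48662298), a brain carrier of this branch, was at 73.8, 70.8 and 71.4 CPM in saline, 70.3, 76.5 and 95.1 in cocaine and 69.4, 62.6 and 114 in yoked libraries, with 29.4 in the input. It had the highest ratio of all members, 2.59 (log2 1.37 ± 0.27), and its libraries lay within a narrow band except cocaine 3 and yoked 3. Slc25a27 (chromosome 17, 43637739 to 43667214), also of brain, was at 18.1, 15.3 and 14.3 CPM in saline, 17.8, 18.0 and 14.4 in cocaine and 18.9, 17.3 and 17.0 in yoked libraries, below the 26.5 of the input in 9 of 9 (ratio 0.637, log2 -0.65 ± 0.14). The ratio of Slc25a14 to Slc25a27 counts was 1.11 in the input and 3.62 to 6.69 in the pull-downs. Slc25a30 was at the input level, with 4 of 9 pull-downs above it and a ratio of 0.973. Ucp2, an uncoupling protein, was at 2.16 ± 0.844 CPM (SD, n = 9) against 34.5 in the input, a ratio of 0.0719, which is lower than that of any Slc25a member described here. Ucp3 was at 0.254 ± 0.209 CPM against 1.45, a ratio of 0.373, also below in 9 of 9.

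The calcium-regulated ATP-Mg/phosphate carriers were on both sides of the input. Slc25a25 was at 50.6 to 81.3 CPM in the pull-downs against 43.3, a ratio of 1.47, above in 9 of 9. Slc25a23 was at 324 to 503 CPM against 747, a ratio of 0.578, below in 9 of 9. Slc25a24 was at 0.573, 1.76 and 0.654 CPM in saline, 0.714, 1.05 and 0.954 in cocaine and 0.588, 1.01 and 2.54 in yoked libraries against 3.46, a ratio of 0.379, also below in 9 of 9. Saline 2 and yoked 3 stood above the other 7 libraries of this low gene. Both iron carriers, the mitoferrins, were below the input in 9 of 9: Slc25a37 at 41.5 to 61.1 CPM against 102 (ratio 0.491) and Slc25a28 at 17.4 to 25.3 against 28.2 (ratio 0.777).

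Among the 11 carriers of cofactors, 4 were above the input in all 9 pull-downs and 2 below. Slc25a26, which imports S-adenosylmethionine, varied least of all members with a mean count of at least 100. It was at 16.8, 17.9 and 15.6 CPM in saline, 15.5, 18.1 and 16.7 in cocaine and 17.5, 15.1 and 16.4 in yoked libraries (coefficient of variation 6.44%) against 8.60 in the input, a ratio of 1.88 (log2 0.91 ± 0.09). It overlaps Lrig1. The peroxisomal carrier Slc25a17 and Slc25a16 were at 1.53 and 1.2 times the input, above in 9 of 9. The NAD carrier Slc25a51 was at 125 to 159 CPM against 175 (ratio 0.812), below in 9 of 9, as was the low Slc25a47 (0.664). The citrate carrier Slc25a1 had 7 of 9 pull-downs below the input, with a range of 10.1 CPM in yoked 3 to 30 in saline 2 against 26.9. The dicarboxylate carrier Slc25a10 had 6 of 9 above it.

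Of the amino acid carriers, the glycine carrier Slc25a38 was above the input in 9 of 9 (ratio 1.40), and the ornithine carrier Slc25a15 (0.821) and the branched-chain amino acid carrier Slc25a44 (0.928) were below it in 9 of 9, the latter by little. Slc25a46 (chromosome 18, 31580164 to 31610532), a family member of the outer membrane linked to mitochondrial shape, was at 138, 144 and 136 CPM in saline, 144, 133 and 123 in cocaine and 125, 102 and 186 in yoked libraries, with 103 in the input. It lay above the input in 8 of 9 pull-downs, with yoked 2 at 0.989 and a mean ratio of 1.31. Low ratios beside that of Slc25a18 belonged to Slc25a34 (0.257) and Slc25a45 (0.363), for which no substrate is given here. Slc25a34 was at 0.371, 1.92 and 0.392 CPM in saline, 0.327, 0.482 and 0.296 in cocaine and 0.230, 0.663 and 0.0227 in yoked libraries against 3.13 in the input, with saline 2 far above the rest. Slc25a45 was at 0.371, 0.460 and 0.0872 CPM in saline, 0.208, 0.0301 and 0.0329 in cocaine and 0.460, 0.343 and 0.136 in yoked libraries against 1.48. Their pull-down values rest on 1 to 29 counts a library, and their log2 ratios of -1.96 and -1.46 were -1.05 and -0.64 with a pseudocount of 2 CPM. At that setting Slc25a45 was no longer lower than Slc25a24 (-0.84) or Slc25a36 (-0.89).

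Other genes of carrier function were set beside the family. All 36 complex I subunit genes lay above the input in all 9 pull-downs, at a median of 3.23 times, and 16 of 17 ATP synthase rows did, at 2.56 times. The ATP synthase rows were taken by symbol, as all that start with Atp5, and need not all be subunits. Among them Atp5l and Atp5g2 were low, at 0.328 and 0.345 CPM in the pull-downs. Of 12 genes that import carriers into the inner membrane (TOM, small TIM and TIM22 components), 11 were above it in all 9, at a median of 2.06 times. The channels Vdac1, Vdac2 and Vdac3 were at 1.46, 1.64 and 2 times the input. Of 17 other inner membrane transporters, 10 were above and 4 below in all 9, with Mpc2 of the pyruvate carrier at 3.69 times and Sfxn5 at 0.444. The family's median was 1.16. With 1 input the differences between lists were not tested. The 4 relatives under other symbols had a median of 0.764, with the outer membrane proteins Mtch1 and Mtch2 at 2.18 and 1.57 times the input and Ucp2 and Ucp3 below it.

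The comparison of cocaine and saline self-administration asks whether carrier RNA on D1 ribosomes differed with the drug. No member passed (0 of 40 called, smallest adjusted p = 0.999 by the edgeR quasi-likelihood F test, Benjamini-Hochberg over 14680 genes), where 0% of all genes were called. An unadjusted p under 0.05 was reached by 0 of 40 members and 2.84% of all genes. Without yoked 3 it was reached by 2 members, Slc25a4 and Slc25a10, and with the 2 groups fitted alone by 1. No share of all genes is given for these fits, so nothing is read from these counts about the members. DESeq2 called 0 members and 0.00447% of 22373 genes, and its unadjusted p was under 0.05 for 0 members and 2.30% of genes. In value 26 members were higher and 14 lower after cocaine, where 7432 of all 14680 genes were higher and 7248 lower. The median log2 fold change was 0.07, against 0.0036 for all genes. The 95% interval of the fold change lay within 1.5-fold either way for 25 of 40 members and within 2-fold for 34. For the other 6 the interval reached beyond 2-fold.

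**Figure D3:**
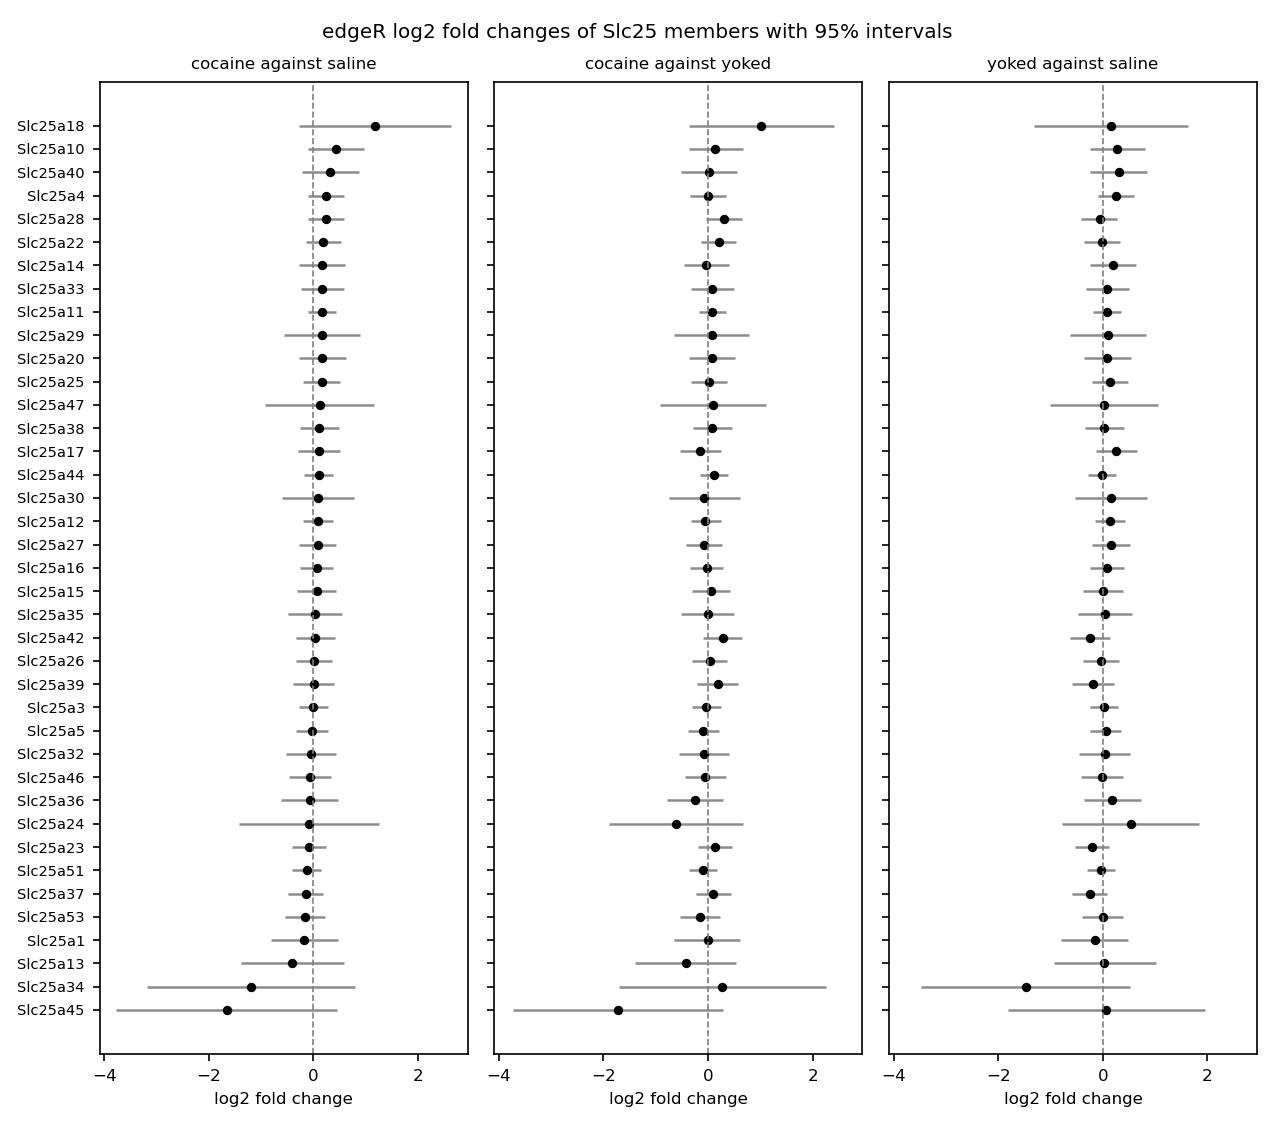
edgeR log2 fold changes (points) with 95% intervals (lines) of 39 Slc25 members in the 3 comparisons, sorted by cocaine against saline. The intervals of all members shown include 0, and those of Slc25a18, Slc25a34 and Slc25a45, the members with few counts, are the widest.

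All 3 cocaine libraries lay above all 3 saline libraries for 6 members, Slc25a4, Slc25a10, Slc25a18, Slc25a22, Slc25a28 and Slc25a40, where 6.10% of all genes did. Slc25a18 is listed with the limit on its counts given below. The cocaine libraries all lay below the saline libraries for 1 member, Slc25a51, where 5.31% of all genes did. Of these, Slc25a4 averaged 654 ± 50.7 CPM after cocaine against 556 ± 26.3 after saline (SD, n = 3 for both). The log2 fold change was 0.24 ± 0.16 (SE; edgeR unadjusted p = 0.161, interval -0.11 to 0.59). The lowest cocaine library, at 598 CPM, was close to the highest saline library, at 586. Without yoked 3, which enters the shared estimate of spread, the fold change of Slc25a4 was the same and its unadjusted p was 0.0328. ATP synthase rows and complex I genes had medians of 0.26 and 0.28 in the same comparison, with 17 of 17 and 35 of 36 higher in value. Of these genes 0 were called, and of all 14680 genes 7432 were higher in value. A link between these lists and Slc25a4 was not tested.

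The dicarboxylate carrier Slc25a10 (chromosome 11, 120491837 to 120501161) had the smallest p of the family here. It was at 6.57, 5.98 and 8.72 CPM in saline, 8.92, 10.4 and 9.28 in cocaine and 11.1, 9.12 and 5.72 in yoked libraries. Cocaine 1 and saline 3 were nearly level, and the log2 fold change was 0.43 ± 0.25 (edgeR unadjusted p = 0.104). It was 0.61 without saline 3 (unadjusted p = 0.0484), but 0.33 without saline 2 (unadjusted p = 0.255) and 0.35 without cocaine 2 (unadjusted p = 0.234). Without yoked 3 it was the same as with all libraries, with an unadjusted p of 0.0405. Slc25a28, a mitoferrin, was at 22.6, 23.1 and 17.4 CPM in saline, 24.1, 25.3 and 24.9 in cocaine and 20.8, 18.2 and 21.1 in yoked libraries. Its log2 fold change was 0.24 ± 0.16, and 0.12 without saline 3, its lowest library. Slc25a22 was at 92.8 ± 4.74 and 105 ± 2.02 CPM, a log2 fold change of 0.19 ± 0.16.

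Slc25a18 had the largest fold change upward in value, 1.18 ± 0.68 (unadjusted p = 0.105, interval -0.28 to 2.63), with 0.853 ± 0.044 CPM after cocaine against 0.369 ± 0.149 after saline. These levels rest on 25 to 30 counts in cocaine and 4 to 16 in saline libraries. Slc25a18 reached 10 counts in all 3 cocaine libraries and otherwise only in saline 1 and yoked 2. It thus met the count level through the group where it was higher, and nothing is read from its difference. The 8 astrocyte markers summed to 237 to 467 CPM in cocaine, 226 to 626 in saline and 242 to 1110 in yoked libraries, none of them at 0 in every pull-down. Their part in the Slc25a18 values was not tested. Slc25a45 had the largest fold change downward in value, -1.65 ± 0.99, on 1 to 7 counts in cocaine and 2 to 11 in saline libraries. With 1 pull-down left out, Slc25a45 ran from -3.09 (without cocaine 1) to -1.26 (without cocaine 2). It reached 10 counts in saline 1, yoked 1 and yoked 2 and in no cocaine library, so it entered the test through the groups where it was higher, and nothing is read from its difference.

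Members described by role did not pass the test either. The log2 fold changes, with their 95% intervals, were -0.0058 (-0.28 to 0.27) for Slc25a3 and -0.03 (-0.33 to 0.27) for Slc25a5. They were 0.17 (-0.10 to 0.44) for Slc25a11 and 0.09 (-0.20 to 0.37) for Slc25a12. Slc25a14 was at 0.17 (-0.27 to 0.60), Slc25a27 at 0.08 (-0.28 to 0.44) and Slc25a46 at -0.06 (-0.46 to 0.34). By role, all 4 amino acid carriers outside the aspartate and glutamate group and all 3 uncoupling-protein-like carriers were higher in value after cocaine. Of the cofactor carriers 9 of 11 were, and of the ADP/ATP and phosphate carriers 1 of 3 was. None of these passed the test, the groups are small, and 7432 of all 14680 genes were also higher in value.

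**Figure D4:**
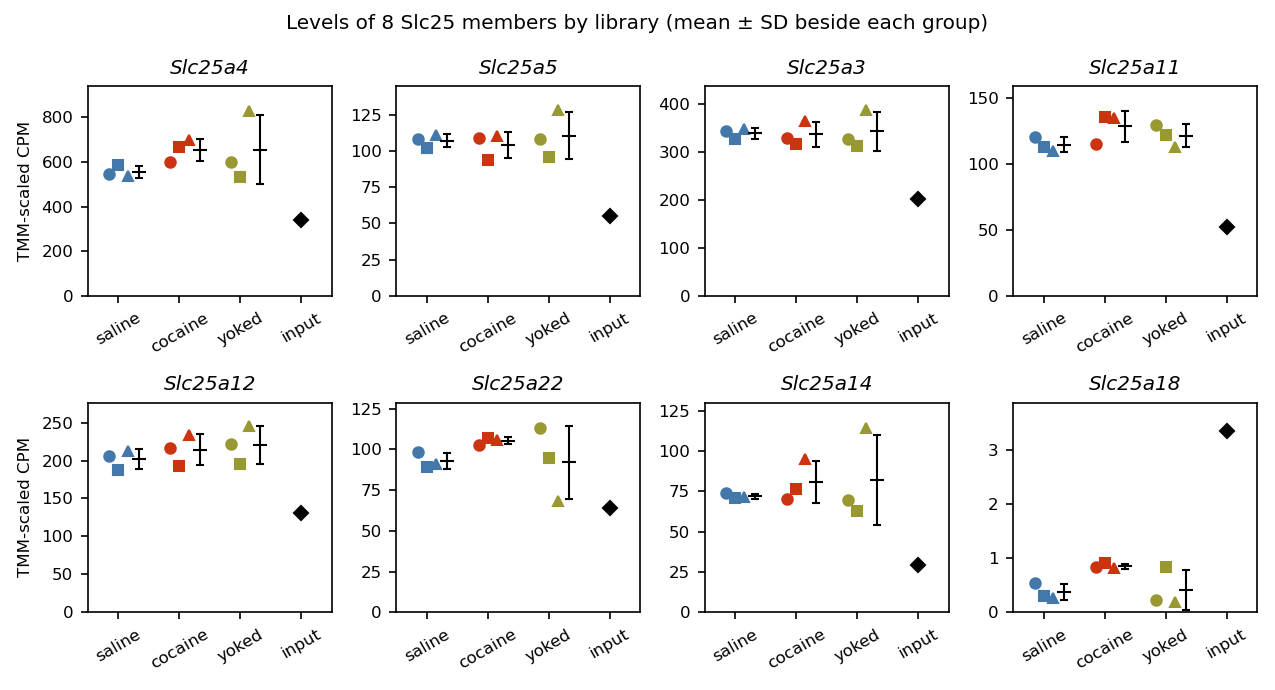
TMM-scaled CPM of 8 Slc25 members in every library, with circles, squares and triangles for libraries 1, 2 and 3, the mean ± SD of each group of 3 beside the points, and a diamond for the input. Slc25a18 is the only one of the 8 whose pull-downs all lie under the input, and yoked 3 sets the SD of the yoked group for Slc25a4, Slc25a22 and Slc25a14.

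Cocaine self-administration was next compared with the yoked control, which shares the cocaine libraries with the comparison above. Again 0 of 40 members were called by edgeR (smallest adjusted p = 0.974; 0% of all genes called), 0 had an unadjusted p under 0.05 (2.58% of all genes), and DESeq2 called 0 (0% of genes) and had 0 members under 0.05 unadjusted (2.28% of genes). In value 21 members were higher and 19 lower after cocaine, where 6683 of all 14680 genes were higher and 7997 lower. Without yoked 3, 28 of 40 members were higher, and no share of all genes is given for that. With all libraries their median log2 fold change was 0.02, against -0.03 for all genes. All cocaine libraries lay above all yoked libraries for 2 members, among them Slc25a28 (3.34% of all genes), and below them for 0 members (3.39% of all genes). Slc25a28 (chromosome 19, 43663801 to 43675006) was at 24.7 ± 0.597 and 20.0 ± 1.62 CPM, with a log2 fold change of 0.30 ± 0.16 (unadjusted p = 0.0783). Slc25a42, a coenzyme A carrier, was at 43.4, 48.4 and 42.8 CPM in saline, 46.3, 48.1 and 43.3 in cocaine and 46.1, 40.4 and 27.2 in yoked libraries, with yoked 3 the lowest. Its log2 fold change was 0.28 ± 0.18. It was 0.09 without yoked 3 and 0.44 without yoked 1 (edgeR unadjusted p = 0.0339). Slc25a45 was at -1.73 ± 0.94, with the limit given above. It was at -3.16 without cocaine 1 and at -1.33 without cocaine 2.

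Several members changed sign in this comparison when yoked 3 was left out. The log2 fold change went from -0.0086 to 0.21 for Slc25a4, from -0.03 to 0.30 for Slc25a14 and from -0.05 to 0.24 for Slc25a46, with unadjusted p of 0.0861, 0.0377 and 0.0652 by edgeR. None was called. With all libraries, the values were 0.08 (-0.18 to 0.35) for Slc25a11, -0.05 (-0.33 to 0.24) for Slc25a12, 0.20 (-0.14 to 0.54) for Slc25a22, -0.03 (-0.30 to 0.25) for Slc25a3 and -0.09 (-0.38 to 0.21) for Slc25a5. Slc25a27 was at -0.08 (-0.43 to 0.27). Slc25a18 was at 1.02 (-0.37 to 2.40), on 8 to 37 counts in yoked libraries and with the limit given above for this gene. Slc25a18 was at 0.66 without yoked 3 and 2.03 without yoked 2, and nothing is read from these values either. Slc25a22 was at 0.03 without yoked 3 and 0.37 without yoked 1 (unadjusted p = 0.0397).

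The yoked control was compared with saline self-administration, which shares libraries with both comparisons above. No member was called by edgeR (0 of 40, smallest adjusted p = 0.999; 0% of all genes), 0 had an unadjusted p under 0.05 (1.84% of all genes), and DESeq2 called 0 members (0% of genes), with 0 under 0.05 unadjusted (1.73% of genes). In value 26 members were higher and 14 lower in yoked libraries, where 8070 of all 14680 genes were higher and 6610 lower. The median log2 fold change was 0.04 against 0.03 for all genes. Without yoked 3 the median of the members was -0.03, and 17 of 40 members were higher. Yoked and saline libraries did not overlap for 1 member, the mitoferrin Slc25a37 (chromosome 14, 69241848 to 69285544), whose yoked libraries were all lower (3.34% of all genes), and 0 members were higher in this way (3.29% of all genes). Slc25a37 was at 60.0, 52.2 and 53.7 CPM in saline and 47.5, 45.3 and 46.5 in yoked libraries, with cocaine at 61.1, 46.7 and 41.5, across both. The log2 fold change of Slc25a37 was -0.25 ± 0.15 (unadjusted p = 0.134 by edgeR), and -0.26 without yoked 3. For Slc25a4 the log2 fold change was 0.25 ± 0.16. It was 0.03 without yoked 3 and 0.37 without yoked 2 (edgeR unadjusted p = 0.0366). For the peroxisomal carrier Slc25a17, at 26.9, 25.5 and 30.3 CPM in saline, 26.1, 31.8 and 31.2 in cocaine and 29.3, 27.1 and 42.2 in yoked libraries, it was 0.26 ± 0.18, and 0.03 without yoked 3. Slc25a34, on 1 to 29 counts, was at -1.47 ± 0.93. It was -0.91 without yoked 3, -0.31 without saline 2 and -2.74 without yoked 2 (edgeR unadjusted p = 0.0224). Slc25a46 went from -0.01 to -0.30 without yoked 3 (unadjusted p = 0.0270) and Slc25a14 from 0.20 to -0.13.

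The other members described by role had log2 fold changes of 0.02 (-0.25 to 0.30) for Slc25a3, 0.06 (-0.24 to 0.35) for Slc25a5 and 0.09 (-0.18 to 0.35) for Slc25a11. Slc25a12 was at 0.13 (-0.15 to 0.42), Slc25a22 at -0.0081 (-0.35 to 0.33), Slc25a27 at 0.16 (-0.20 to 0.52) and Slc25a18 at 0.16 (-1.31 to 1.63).

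Among single libraries, yoked 3 was the highest of the 9 pull-downs for 14 of 40 members (35.0%), where it was so for 25.6% of all genes, and the lowest for 12 (30%), against 24.9% of all genes. It was the highest for all 3 ADP/ATP and phosphate carriers and for Slc25a12, Slc25a14, Slc25a16, Slc25a17, Slc25a46 and Slc25a51, among others. It was the lowest for Slc25a1, Slc25a10, Slc25a22, Slc25a23, Slc25a25, Slc25a39, Slc25a42 and Slc25a44, among others. Slc25a16 and Slc25a42, which are close relatives, moved apart in it: the ratio of their counts was 5.63 in yoked 3, 2.56 to 2.78 in the other 8 pull-downs and 3.18 in the input. The astrocyte markers summed to 242 CPM in yoked 3, within the 226 to 1110 of the other pull-downs, and the D1 markers to 3360 CPM in yoked 3 and 2220 to 2970 in the other pull-downs. Yoked 3 had the lowest sums of oligodendrocyte (193 CPM), microglia (3.93), interneuron (24.3) and pituitary markers (0.432). Its sum of cortical glutamatergic markers (115 CPM) was the highest, and those of D2 (211) and endothelial and mural markers (3.48) lay within the other pull-downs. The part of cell makeup in these values was not tested, and fewer cells of a type cannot be told apart from less RNA per cell. Among the 34 members with a mean count of at least 100, the median coefficient of variation over the 9 pull-downs was 13.6%, against 15.6% for 10810 genes at that level.

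**Figure D5:**
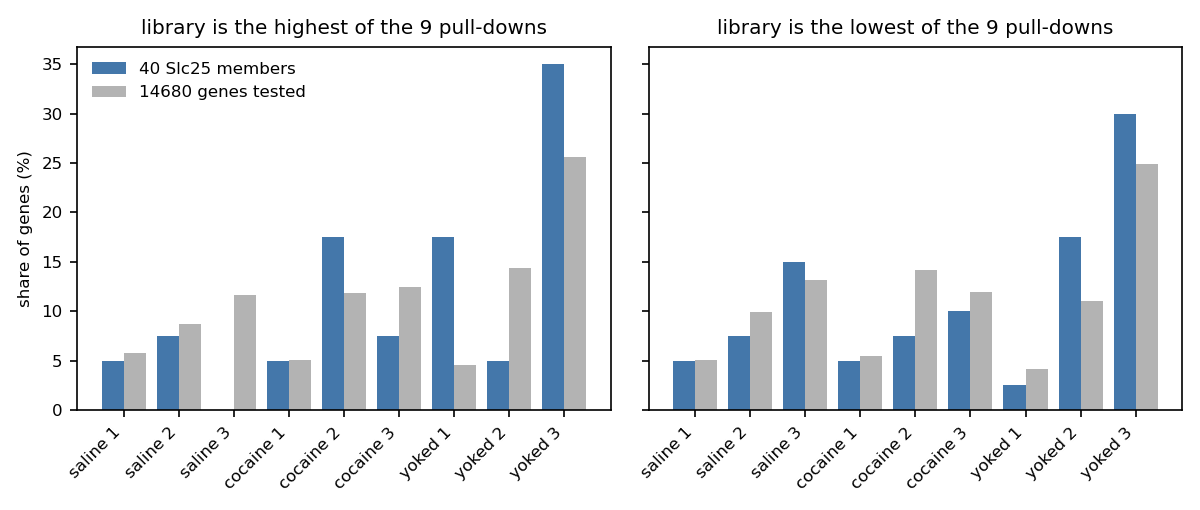
Share of genes for which each pull-down is the highest (left) or the lowest (right) of the 9, for the 40 Slc25 members (blue) and all 14680 genes tested (grey). Yoked 3 holds the largest share in both panels, 35.0% and 30% of the members against 25.6% and 24.9% of all genes.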

How the data were processed

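Ribosome-bound RNA was measured in 9 pull-downs and total RNA in 1 input. The deposited values are read counts per gene symbol, which the authors made with STAR 2.0.0e and HTSeq; the submitters' processing notes name the build mm10. The sources used here give no annotation, strand setting, counting mode or HTSeq version. The 6 rows naming no gene were left out. Of reads aligned to 1 place, 12.2% to 16.1% in pull-downs and 27.6% in the input fell in no feature. A count of 3 is 0.0663 to 0.239 CPM in the pull-downs. Replicate libraries differed by more than counting noise, with chi-square over its degrees of freedom at 14.4 to 157.

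Groups were compared by the robust quasi-likelihood F test of edgeR 4.0.16 (R 4.3.3; TMM, filterByExpr, group as the only term) on the 9 pull-downs, adjusting over 14680 genes, with a call at an adjusted p under 0.05. The test was checked on simulated data with 2-fold changes. The simulated spread between libraries was smaller than in these data, whose common biological coefficient of variation was 23.7%. The check therefore does not show whether changes as small as those of most members could be found here. SE is the log2 fold change over the root of F. DESeq2 1.42.0 and other settings were alternatives. Ratios to the input used TMM over 10 libraries and a pseudocount of 0.5 CPM. Positions are of GRCm38.p6 (mm10) from RefSeq. Values in every library were given for the 4 members with the smallest p in each comparison, the 5 highest and 5 lowest against the input, and 10 members fixed by role; others were named by role. Of these members 1 is not reported here, though it is in the counts. Members and lists were chosen with earlier results of these data known. Same-numbered libraries were not paired, since the labels state no pairing. Their deviations from group means correlated at -0.0176 to 0.0525 for number 1, 0.128 to 0.225 for number 2 and 0.23 to 0.245 for number 3. A fit with the number as a block is given among the alternatives.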

Additional observations from a re-analysis of the deposited data

Results flagged for a closer look

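Of the 7 members below the level for description, 3 had libraries of cocaine or yoked mice with more than 3 counts, the limit that a count of 0 allows, and with a higher share of the library's gene counts than in every saline library. Slc25a31, an ADP/ATP carrier best known from testis, had 6 counts in yoked 1 and 4 in yoked 2, against 0 in all 3 saline libraries and 2 in the input. Slc25a43 had 11 counts in cocaine 2, against 0 to 5 in saline libraries and 5 in the input. Slc25a48 had 15 counts in yoked 3, against 0 to 3 in saline libraries and 16 in the input. These libraries differ in depth, the values are counts of single libraries, and no difference between groups was tested.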

How the results depend on the processing

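No member was called in any comparison by edgeR or DESeq2 under the alternatives run: DESeq2, RLE scaling, no filter, the replicate block, 2 groups only (39 members tested in 2 of the comparisons), Rn45s left out, and each pull-down left out in turn. The replicate block gave member medians of 0.07, 0.04 and 0.03 and called 0 members. The libraries share a number only, and the replicate block moved the calls over all genes from 0 to 1 in each comparison.

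Of 40 named fold changes 15 changed sign under some alternative. The cause was not tested. In cocaine against yoked, Slc25a4 was at 0.0051 with the replicate block, 0.0018 with 2 groups only and 0.0036 without Rn45s, and Slc25a14 at 0.0011 with the replicate block. In yoked against saline, Slc25a18 was at -0.05 with the replicate block, and without a filter Slc25a22 was at 0.0012 and Slc25a46 at 0.00028.

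With 1 pull-down left out, the member median ran from 0.02 (without cocaine 2) to 0.07 for cocaine against saline, from -0.03 (without yoked 2) to 0.05 (without yoked 1) for cocaine against yoked, and from -0.03 (without yoked 3) to 0.07 (without yoked 2) for yoked against saline. For cocaine against saline, Slc25a3 and Slc25a5 both ran from -0.06 to 0.03. For cocaine against yoked, Slc25a3 ran from -0.09 to 0.08, Slc25a4 from -0.13 to 0.21, Slc25a5 from -0.18 to 0.04, Slc25a12 from -0.13 to 0.05, Slc25a14 from -0.19 to 0.30, Slc25a27 from -0.15 to 0.02 and Slc25a46 from -0.22 to 0.24. For yoked against saline, Slc25a3 ran from -0.09 to 0.08, Slc25a5 from -0.07 to 0.14, Slc25a18 from -0.86 to 0.57, Slc25a22 from -0.17 to 0.16, Slc25a14 from -0.13 to 0.35 and Slc25a46 from -0.30 to 0.16.

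None of the 16 named ratios to the input changed sign. Their median over the family was 0.21 on the log2 scale and -0.02 when all 47 members with at least 1 count were taken. Members with few counts limit what the depth can show.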

Other observations

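Slc25a41, a member below the level for description, had 13 counts in saline 3 (0.567 CPM), at most 2 counts in each of the other 8 pull-downs and 0 in the input. Slc25a54 had 0 counts in all 9 pull-downs and 3 in the input, and Slc25a2 had 2 counts in saline 1, 1 in saline 3 and 5 in the input.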
